A study of Homo sapiens with 20 samples.

Results

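The RNA levels of 10 genes for cytosolic proteins that bind calcium, membranes, sugars or the cytoskeleton were followed in myeloma cells: S100A4, S100A6, S100A10, S100A11, ANXA1, ANXA2, ANXA5, LGALS1, LGALS3 and VIM. They are 10 of the 18305 genes in the deposited table. They were chosen by measured values, because S100A4 was either abundant or close to 0 depending on the line and on drug resistance. The S100A4 levels are therefore given as a description with no test, and the tests concern the other 9 genes.

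The study sequenced RNA from AMO1, L363 and RPMI-8226, which are 3 established myeloma lines, and from ARH-77, an established B-lymphoblastoid line. For each line, wild-type (WT) cells were compared with BtzR cells, selected in culture for resistance to bortezomib, and for AMO1 and L363 also with CfzR cells, selected for resistance to carfilzomib. Both drugs inhibit the proteasome, and the resistant cells were kept in 90 nM of their drug, so that the drug in the medium and the selected state cannot be told apart. Each of the 10 groups had 2 biological replicates, 20 libraries in all, and how many clones a resistant line came from is not given in the sources used here. Levels are FPKM values, in which the fragments of a gene are divided by its transcript length and by the library's size, so that genes can be compared within a library. The depth of the libraries is unknown. Over the listed genes FPKM summed to between 457317 and 494850 per library, and between 10455 and 11023 genes reached 1 FPKM.

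The libraries labelled AMO1 CfzR went against their label. Across the 13089 genes tested, their log2(FPKM + 1) values correlated with those of the 6 L363 libraries at a Pearson r between 0.986 and 0.992, but with those of the 4 other AMO1 libraries only between 0.878 and 0.883. Replicates of a group correlated between 0.986 and 0.998. These libraries are named by their label below and are set against both AMO1 WT and L363 WT. Of 8 plasma cell markers SDC1, TNFRSF17, CD38, IRF4 and XBP1 reached 1 FPKM in all 10 groups, while SLAMF7 did not in either RPMI-8226 group, CD28 did not in RPMI-8226 BtzR or in the ARH-77 groups, and PRDM1 did not in ARH-77 BtzR. All 6 B cell markers reached it in ARH-77 WT and ARH-77 BtzR. In RPMI-8226, CD72 reached it in both groups and CR2 in WT cells, and none of the 6 did in any AMO1 or L363 group. No fibroblast marker reached 1 FPKM in any group of the 3 myeloma lines, while COL1A1 did in both ARH-77 groups. Of 6 monocyte and macrophage markers only LYZ reached 1 FPKM in the myeloma groups, and ITGAM did so as well in ARH-77. Of 10 housekeeping genes looked at, none was listed at 0 in any library, and the lowest value was 0.18 FPKM for HPRT1, in ARH-77 WT.

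S100 proteins are small calcium-binding proteins with paired EF-hand motifs, which change shape on binding calcium and then dock onto partner proteins. Annexins bind acidic phospholipids of membranes in a calcium-dependent way, and several of them pair with an S100 protein, the best known pair being ANXA2 with S100A10. Galectins bind beta-galactoside sugars on glycoproteins, and vimentin forms the intermediate filaments of mesenchymal and many blood cells. Most S100 genes lie side by side in one cluster on the long arm of chromosome 1.

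The 4 S100 genes studied here are all in that cluster, and S100A4 and S100A6 lie close together there and showed nearly the same pattern of levels, so the 250 bases before the start of each are shown for comparison with S100A10 and S100A11. The sequences are RefSeq promoters on the GRCh38.p14 build, written 5′ to 3′ with each CpG in capitals.
S100A4 promoter, chr1:153545807-153546056, minus strand: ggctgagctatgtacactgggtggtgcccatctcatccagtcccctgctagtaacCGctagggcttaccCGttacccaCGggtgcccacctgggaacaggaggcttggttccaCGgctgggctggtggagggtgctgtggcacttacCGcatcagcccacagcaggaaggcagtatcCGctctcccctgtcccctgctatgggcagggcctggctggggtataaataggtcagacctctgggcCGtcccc
S100A6 promoter, chr1:153535992-153536241, minus strand: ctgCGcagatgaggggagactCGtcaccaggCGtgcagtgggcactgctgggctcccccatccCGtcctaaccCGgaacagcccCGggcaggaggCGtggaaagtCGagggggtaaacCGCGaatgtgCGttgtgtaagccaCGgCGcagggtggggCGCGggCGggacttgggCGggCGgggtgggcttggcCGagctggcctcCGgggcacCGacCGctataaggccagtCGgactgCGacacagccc
S100A10 promoter, chr1:151993860-151994109, minus strand: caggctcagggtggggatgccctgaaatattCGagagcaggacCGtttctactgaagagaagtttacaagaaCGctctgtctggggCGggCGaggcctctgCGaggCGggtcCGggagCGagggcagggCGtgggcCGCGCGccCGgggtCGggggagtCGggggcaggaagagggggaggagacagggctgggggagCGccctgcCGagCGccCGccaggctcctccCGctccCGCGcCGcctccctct
S100A11 promoter, chr1:152037005-152037254, minus strand: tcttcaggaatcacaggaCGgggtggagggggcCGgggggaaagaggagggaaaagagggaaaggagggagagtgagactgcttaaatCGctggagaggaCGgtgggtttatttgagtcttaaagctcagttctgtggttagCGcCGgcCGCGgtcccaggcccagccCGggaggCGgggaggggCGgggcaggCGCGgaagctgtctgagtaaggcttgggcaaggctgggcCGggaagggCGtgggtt
The S100A4 sequence held 7 CpG, against 24 in S100A6, 24 in S100A10 and 15 in S100A11. Among 35116 RefSeq promoters of the same length the median was 11 CpG, 58.9% held at least as many as S100A4 and 23.7% at least as many as S100A6. Promoters were matched for 9 of the 10 genes. ANXA1 held no CpG, VIM held 8, ANXA2 held 28, ANXA5 held 31 and LGALS3 held 32. CpG was counted as CG, which reads the same on both strands, and methylation was not measured.

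S100A4, which binds non-muscle myosin and is known for its link with cell motility, was present or nearly absent by group. It reached 254 and 502 FPKM in AMO1 WT, 178 and 150 in AMO1 BtzR, and 299 and 307 in RPMI-8226 WT. It was at 11.98 and 17.6 FPKM in ARH-77 WT and at 22.5 and 19.7 in ARH-77 BtzR. The other 10 libraries were all under 1 FPKM. L363 WT had 0.24 and 0.12 FPKM, L363 BtzR 0.12 and 0.49, L363 CfzR 0.24 and 0, RPMI-8226 BtzR 0.12 and 0.57, and the libraries labelled AMO1 CfzR 0.11 and 0.56. No library lay between 0.57 and 11.98 FPKM. AMO1 WT and RPMI-8226 WT overlapped, and so did the 5 groups under 1 FPKM, while AMO1 BtzR, ARH-77 BtzR and ARH-77 WT each stood clear of their neighbours in the order. The AMO1 WT mean was 2.31 times the AMO1 BtzR mean, but the 2 AMO1 WT replicates were far apart: only 0.306% of tested genes had a gap between these replicates at least as large.

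**Figure D1:**
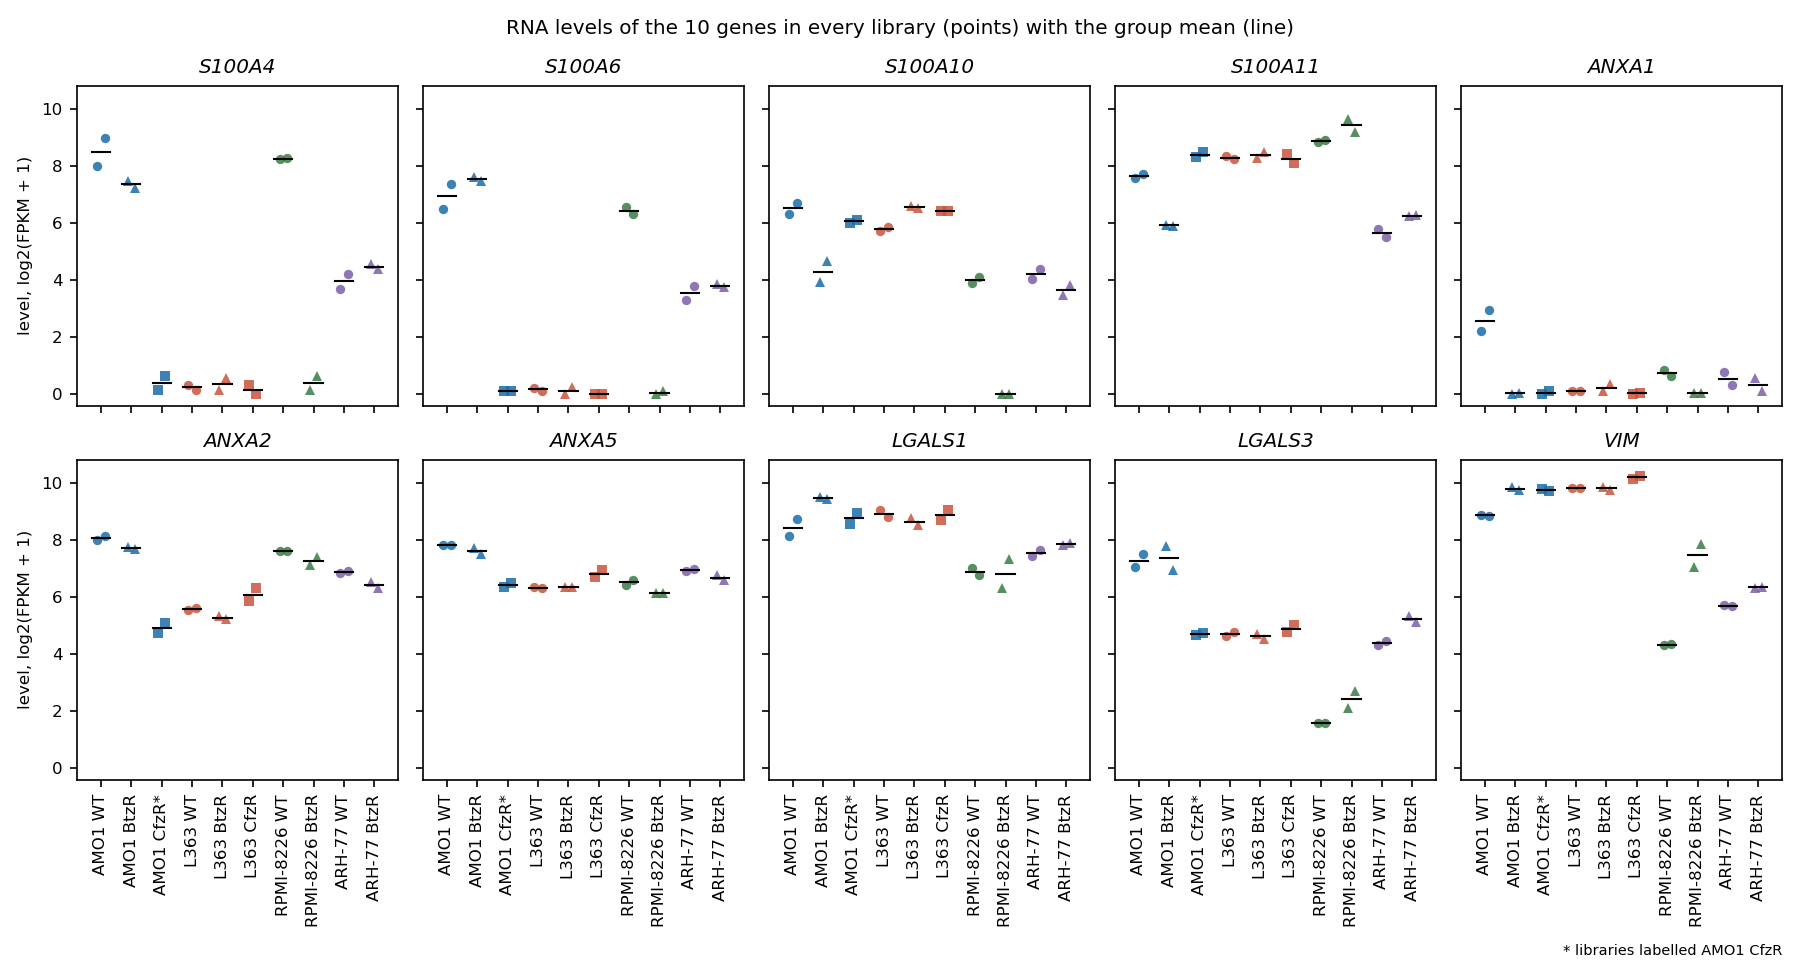
Level of each of the 10 genes, as log2(FPKM + 1) on the vertical axis, in the 10 groups on the horizontal axis. Points are the 2 libraries of a group and the black line is their mean; circles are WT, triangles BtzR and squares CfzR cells, and colors stand for AMO1 (blue), L363 (red), RPMI-8226 (green) and ARH-77 (purple). S100A4 and S100A6 were at or near 0 in the same 5 groups, whereas S100A11, ANXA2, ANXA5, LGALS1, LGALS3 and VIM were present in all 20 libraries.

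S100A6, also called calcyclin, a gene for a partner of the ubiquitin ligase adaptor CACYBP, followed the same division of groups. It was at 88.8 and 164 FPKM in AMO1 WT, 195 and 178 in AMO1 BtzR, 93.2 and 78.0 in RPMI-8226 WT, 8.97 and 12.97 in ARH-77 WT, and 13.5 and 12.4 in ARH-77 BtzR. It was at most 0.18 FPKM in the other 10 libraries and was listed at 0 in both libraries of L363 CfzR. In the order of its levels AMO1 WT overlapped RPMI-8226 WT, ARH-77 BtzR overlapped ARH-77 WT, and the 5 lowest groups overlapped each other from one to the next. Unlike S100A4, its highest group was AMO1 BtzR, which stood clear of AMO1 WT.

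S100A10, the light chain that joins ANXA2 in a membrane-bound tetramer, had a different pattern. In the 3 L363 groups it was at 52.2 and 57.0 FPKM (WT), 94.8 and 90.4 (BtzR) and 84.3 and 84.6 (CfzR), and the libraries labelled AMO1 CfzR had 63.2 and 67.6. AMO1 WT had 79.3 and 103 FPKM and AMO1 BtzR only 14.1 and 24.5. RPMI-8226 WT had 13.9 and 16.2 FPKM, and both RPMI-8226 BtzR libraries were listed at 0, the only such group for this gene. ARH-77 WT had 15.6 and 20.1 FPKM and ARH-77 BtzR 10.1 and 13.1. L363 BtzR and L363 CfzR, which nearly lacked S100A4 and S100A6, thus overlapped AMO1 WT in S100A10.

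S100A11, a partner of ANXA1, was the only S100 gene of the 4 that was abundant in every library, from 44.9 to 802 FPKM. It was highest in RPMI-8226, at 453 and 474 FPKM in WT and 802 and 585 in BtzR cells. The L363 groups and the libraries labelled AMO1 CfzR lay together between 274 and 357 FPKM. AMO1 WT had 188 and 212 FPKM, AMO1 BtzR 60.5 and 58.6, ARH-77 WT 55.0 and 44.9, and ARH-77 BtzR 74.8 and 76.3. AMO1 BtzR therefore lay among the ARH-77 groups and below every other myeloma library.

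**Figure D2:**
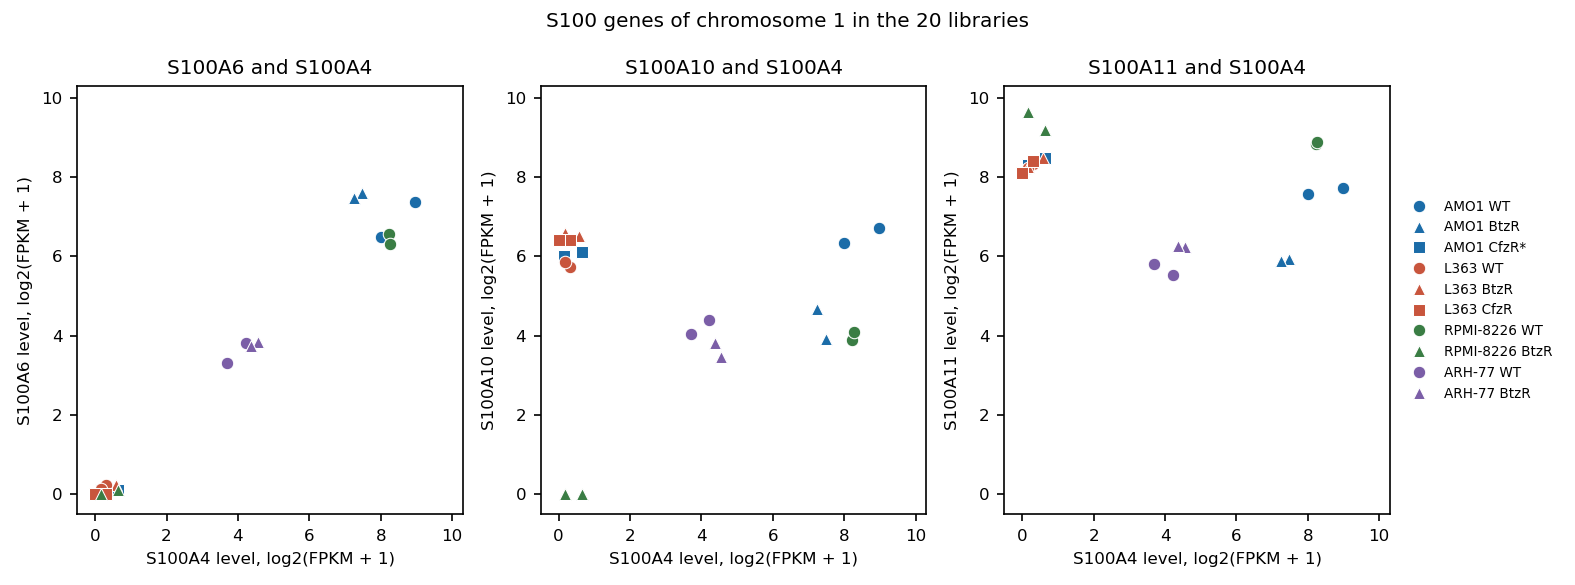
Levels of S100A6, S100A10 and S100A11 (vertical axes) against S100A4 (horizontal axis), all as log2(FPKM + 1), with 1 point per library; circles are WT, triangles BtzR and squares CfzR cells, colored by line, and the star marks the libraries labelled AMO1 CfzR. S100A6 was high in the libraries in which S100A4 was high, while the 10 libraries with S100A4 under 1 FPKM spanned 0 to 94.8 FPKM of S100A10 and 274 to 802 FPKM of S100A11.

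ANXA1, the glucocorticoid-induced annexin of leukocytes, was detected above 1 FPKM only in AMO1 WT, at 3.65 and 6.67 FPKM. The other 18 libraries lay between 0 and 0.79 FPKM. It passed the filter on low values through AMO1 WT alone, so it had to differ in comparisons with that group. In those its values are given as a description, and the counts are over the 8 other tested genes.

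ANXA2, the heavy chain of the S100A10 tetramer, was present everywhere, from 25.7 to 281 FPKM. It was highest in AMO1 WT, at 255 and 281 FPKM, followed by AMO1 BtzR at 212 and 204, RPMI-8226 WT at 192 and 195, RPMI-8226 BtzR at 136 and 168, ARH-77 WT at 113 and 120, and ARH-77 BtzR at 91.1 and 78.2. L363 had less, with 56.7 and 77.8 FPKM in CfzR, 45.2 and 47.8 in WT and 39.2 and 36.3 in BtzR cells. The libraries labelled AMO1 CfzR were lowest, at 25.7 and 32.6 FPKM. No 2 neighbouring groups in this order overlapped.

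ANXA5, the annexin used to stain exposed phosphatidylserine, had the narrowest range in relation to its level, from 69.0 to 226 FPKM. AMO1 WT had 224 and 226 FPKM and AMO1 BtzR 207 and 181, above all other groups. The remaining groups lay between 69.0 and 125 FPKM, with RPMI-8226 BtzR lowest at 70.1 and 69.0.

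LGALS1, galectin-1, was abundant in all libraries, from 79.2 to 730 FPKM. AMO1 BtzR was highest, at 730 and 693 FPKM, and stood clear of AMO1 WT, at 277 and 423. The 3 L363 groups and the libraries labelled AMO1 CfzR overlapped between 362 and 531 FPKM. ARH-77 WT had 171 and 200 FPKM and ARH-77 BtzR 227 and 238. RPMI-8226 WT, at 128 and 107 FPKM, and RPMI-8226 BtzR, at 79.2 and 158, were lowest and overlapped.

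LGALS3, galectin-3, the galectin with a collagen-like tail that crosslinks its ligands, was highest in AMO1 and lowest in RPMI-8226. AMO1 WT had 132 and 178 FPKM and AMO1 BtzR 221 and 123, which overlapped. The L363 groups and the libraries labelled AMO1 CfzR lay between 22.2 and 31.3 FPKM. ARH-77 WT had 18.8 and 21.0 FPKM and ARH-77 BtzR 38.9 and 33.8. RPMI-8226 WT had 2.02 and 2.01 FPKM and RPMI-8226 BtzR 3.33 and 5.48, the lowest of all groups.

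VIM, vimentin, ranged most in absolute terms, from 19.0 to 1210 FPKM. The L363 groups, AMO1 BtzR and the libraries labelled AMO1 CfzR all lay at 842 FPKM or above, with L363 CfzR highest at 1127 and 1210. AMO1 WT had 466 and 458 FPKM. ARH-77 WT had 51.8 and 49.8 FPKM and ARH-77 BtzR 78.9 and 80.0. RPMI-8226 WT was lowest, at 19.0 and 19.2 FPKM, and RPMI-8226 BtzR had 132 and 232.

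Resistant cells were compared with the WT cells of their line, which asks which genes differ in cells selected for resistance and kept in the drug. Differences were tested with limma on log2(FPKM + 1) over all 13089 genes that passed the filter on low values, and a call needed both an adjusted p (Benjamini-Hochberg) under 0.05 and a log2-fold change of 1 or more in size. All 10 genes passed that filter. Log2-fold changes are on the log2(FPKM + 1) scale, which understates the change of low genes. A tested gene whose mean was under 1 FPKM in both groups could not reach that fold threshold, and such genes stay in the counts. This held for ANXA1 in every comparison without AMO1 WT, and for S100A6 among the L363 groups and the libraries labelled AMO1 CfzR. In bulk RNA, fewer cells with a transcript and less of it per cell cannot be told apart. Comparisons that share a WT group are not independent of each other.

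In RPMI-8226 BtzR, S100A6 and S100A10 were lower and VIM was higher than in RPMI-8226 WT, that is 2 of the 9 genes lower and 1 higher, where 7.92% of all tested genes were called lower and 5.91% higher. S100A6 fell by 6.38 on the log2 scale (SE 0.22, adjusted p = 3.4e-12), from 93.2 and 78.0 FPKM to 0 and 0.08. S100A10 went from 13.9 and 16.2 FPKM to a value listed at 0 in both libraries (adjusted p = 2.8e-10). VIM rose by 3.13 on the log2 scale (SE 0.17, adjusted p = 6.0e-10), and its mean was 9.50 times as high. For all 3 genes the groups did not overlap. The S100A4 levels of the same libraries, 299 and 307 FPKM in WT and 0.12 and 0.57 in BtzR cells, are given beside them as a description.

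The other genes of RPMI-8226 BtzR moved less. S100A11 was 0.56 higher (SE 0.14, adjusted p = 0.0041) and LGALS3 0.81 higher (SE 0.23, adjusted p = 0.0080) on the log2 scale, neither reaching the fold threshold. ANXA2 had a log2-fold change of -0.35 (SE 0.14, adjusted p = 0.0495) and ANXA5 had a log2-fold change of -0.36 (SE 0.09, adjusted p = 0.0039). ANXA2, the partner of S100A10, thus stayed at 136 and 168 FPKM in libraries where S100A10 was listed at 0. LGALS1 had a log2-fold change of -0.07 (SE 0.26, adjusted p = 0.87), with overlapping groups. The 2 RPMI-8226 BtzR replicates were far apart in LGALS1 and VIM: 1.03% and 1.64% of tested genes had as large a gap. The median of the 9 genes was -0.35, against 0.05 over all genes. Adding 0.1 in place of 1 before taking logarithms raised the number of the 9 genes called from 3 to 5, with LGALS3 and ANXA1 added, ANXA1 being under 1 FPKM in both groups. Without RPMI-8226 BtzR replicate 1, LGALS3 was also called, at a log2-fold change of 1.10.

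Of the 8 plasma cell markers 3 were also called lower in RPMI-8226 BtzR and none higher, where 7.92% and 5.91% of all genes were. TNFRSF17, the receptor BCMA, was at 94.0 and 98.1 FPKM in WT and at 7.86 and 4.93 in BtzR cells, CD38, a surface enzyme, at 45.6 and 56.7 and then 2.43 and 3.02, and CD28, a costimulatory receptor, at 42.7 and 44.2 and then 0.14 and 0.19. The means of IRF4, PRDM1 and XBP1 were higher in BtzR than in WT cells and those of SDC1 and SLAMF7 lower, none of them called. The summed level of the 8 markers was 557.7 and 581.3 FPKM in WT and 525.4 and 506.4 in BtzR cells, with 7 and 6 of the 8 at 1 FPKM or more and none listed at 0 in both libraries. Their part in the results was not tested.

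In AMO1 BtzR S100A10 and S100A11 were lower and LGALS1 was higher than in AMO1 WT, that is 2 of 8 genes lower and 1 higher with ANXA1 set apart, where 4.57% of all tested genes were called lower and 4.61% higher. S100A10 fell by 2.22 (SE 0.20, adjusted p = 4.5e-07) and S100A11 by 1.73 (SE 0.14, adjusted p = 2.2e-07) on the log2 scale, and their AMO1 WT means were 4.74 and 3.36 times the AMO1 BtzR means. ANXA1 went from 3.65 and 6.67 FPKM to 0 and 0.04, which is a description. LGALS1 rose by 1.05 (SE 0.26, adjusted p = 0.0039), but its call was lost with quantile normalization (0.88) and without AMO1 WT replicate 1 (0.75, adjusted p = 0.064). In each of the 3 called genes the groups did not overlap.

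VIM was 0.93 higher on the log2 scale in AMO1 BtzR (SE 0.17, adjusted p = 0.00031), 1.91 times the WT mean and just under the fold threshold. S100A6 was 0.62 higher (SE 0.22, adjusted p = 0.027), and without AMO1 WT replicate 2 it was called, at 1.06. ANXA2 had a log2-fold change of -0.36 (adjusted p = 0.046), ANXA5 of -0.22 (adjusted p = 0.062) and LGALS3 of 0.10 (adjusted p = 0.76). The median of the 8 genes was -0.06, against -0.0017 over all genes. The 2 AMO1 WT replicates differed more than usual in S100A6, ANXA1 and LGALS1 as well as in S100A4: at most 1.63% of tested genes had as large a gap between them. The 2 AMO1 BtzR replicates did so in S100A10 and LGALS3, where 0.413% and 0.344% of tested genes had as large a gap. The summed level of 5 T cell markers also moved between these groups, from 9.64 and 14.3 FPKM in AMO1 WT to 1.58 and 2.08 in AMO1 BtzR, with 3 of the 5 at 1 FPKM or more in WT (CD3E at 6.73 and 10.7) and CD3D and CD2 listed at 0 there. The summed level of the 8 plasma cell markers, all at 1 FPKM or more in both groups, went from 3715 and 3387 FPKM in AMO1 WT to 1757 and 1894 in AMO1 BtzR. Most of that sum was SDC1, at 3266 and 2883 FPKM in WT and 1276 and 1356 in BtzR cells. Of the 8, SDC1 and CD38 were called lower and none higher, where 4.57% and 4.61% of all genes were. The means of TNFRSF17 and IRF4 were also lower in BtzR cells, while those of PRDM1, XBP1, SLAMF7 and CD28 were higher. The part of such cells or transcripts in the results was not tested.

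None of the 9 genes was called by limma in L363 BtzR, L363 CfzR or ARH-77 BtzR. For S100A6 and ANXA1 in L363 and for ANXA1 in ARH-77 this was fixed, as their means were under 1 FPKM in all groups of the line. In L363 BtzR, where 1.02% of genes were called higher and 1.05% lower, 1 of the 9 had an unadjusted p under 0.05, as did 23.5% of all genes: S100A10, at a log2-fold change of 0.75 (SE 0.20, adjusted p = 0.024). In L363 CfzR, where 1.11% were called higher and 0.825% lower, 4 of the 9 had an unadjusted p under 0.05 (18.8% of all genes). Of these ANXA2 had a log2-fold change of 0.51 (adjusted p = 0.040), ANXA5 of 0.50 (adjusted p = 0.0023), S100A10 of 0.62 (adjusted p = 0.075) and VIM of 0.38 (adjusted p = 0.22). In the direct comparison of L363 CfzR with L363 BtzR, where 0.940% were called higher and 0.535% lower, 3 of the 9 had an unadjusted p under 0.05 (14.8% of all genes) and none was called. ANXA2 came closest, at 0.80 (SE 0.14, adjusted p = 0.0021), and it was called without L363 CfzR replicate 1, at 1.02.

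In ARH-77 BtzR, where 0.955% of genes were called higher and 0.649% lower, 6 of the 9 had an unadjusted p under 0.05 (26.7% of all genes). LGALS3 was 0.84 higher (SE 0.23, adjusted p = 0.025), VIM 0.64 higher (SE 0.17, adjusted p = 0.019) and S100A11 0.59 higher (SE 0.14, adjusted p = 0.013) on the log2 scale, all under the fold threshold. ANXA2 had a log2-fold change of -0.46 (adjusted p = 0.047), S100A10 of -0.58 (adjusted p = 0.070) and ANXA5 of -0.27 (adjusted p = 0.066). S100A6 was at 0.24 (adjusted p = 0.56), with overlapping groups. S100A4 had a BtzR mean 1.43 times the WT mean, a value given with no test.

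**Figure D3:**
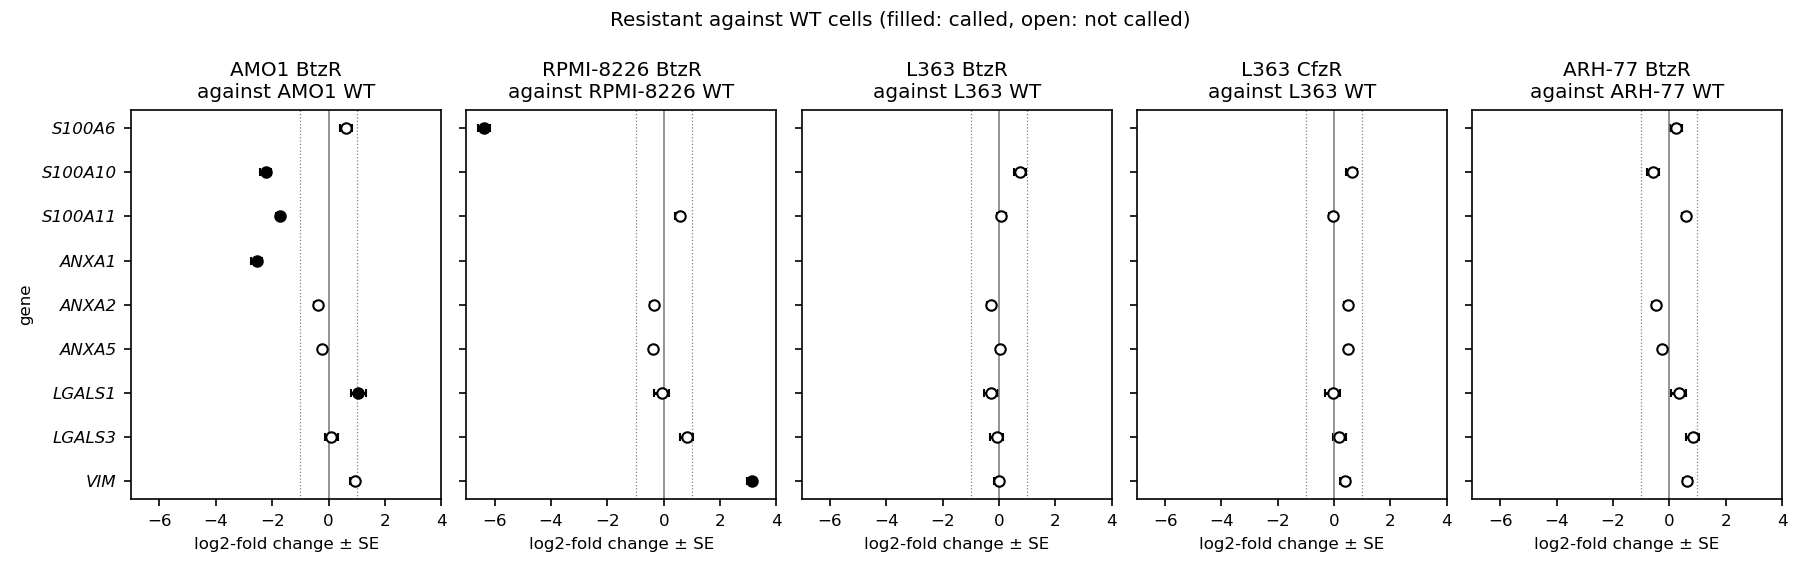
Log2-fold change of resistant against WT cells on the log2(FPKM + 1) scale, with bars of 1 SE, for the 9 genes other than S100A4 in 5 comparisons. Filled points were called and open points were not, the dotted lines are the fold threshold of 1, and no point is drawn where a group was listed at 0 in both libraries or both group means were under 1 FPKM. ANXA1 is drawn filled in the AMO1 panel, where the filter on low values fixed its difference. Called points occur in the AMO1 and RPMI-8226 panels and none in the L363 and ARH-77 panels.

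The libraries labelled AMO1 CfzR differed from AMO1 WT in 4 of 8 genes, all lower, with ANXA1 set apart, where 9.21% of all genes were called lower and 7.88% higher. S100A6 fell by 6.82 (adjusted p = 1.2e-12), ANXA2 by 3.17 (adjusted p = 6.9e-11), LGALS3 by 2.56 (adjusted p = 2.1e-07) and ANXA5 by 1.40 (adjusted p = 5.7e-09) on the log2 scale. The summed level of the 5 T cell markers was 9.64 and 14.3 FPKM in AMO1 WT and 0.49 and 0.83 in these libraries, where CD3D and CD3E were listed at 0. That of the 8 plasma cell markers was 3715 and 3387 FPKM and then 1454 and 1384, all 8 being at 1 FPKM or more. This fall was that of SDC1, from 3266 and 2883 to 233 and 224 FPKM. Every other marker of the 8 had a higher mean in these libraries than in AMO1 WT, XBP1 going from 63.15 and 78.3 to 682 and 624 FPKM. Of the 8, SDC1 was called lower and XBP1 higher. The part of these T cell and plasma cell markers in the results was not tested. Against L363 WT, where 0.856% of genes were called higher and 0.802% lower, none of the 9 was called by limma, and 1 had an unadjusted p under 0.05 (16.5% of all genes). That gene was ANXA2, at a log2-fold change of -0.67 (SE 0.14, adjusted p = 0.0082). S100A6 and ANXA1, with means under 1 FPKM in both groups, could not be called there.

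Whether BtzR cells departed from WT cells by different amounts in the 4 lines was tested for each gene by an interaction F test in limma. With ANXA1 set apart it passed in 6 of 8 genes, against 71.1% of all tested genes, so that the share of the 8 was near that of all genes. The 2 genes that did not pass were ANXA2 (adjusted p = 0.89), with log2-fold changes between -0.46 and -0.29 in the 4 lines, and ANXA5 (adjusted p = 0.068), with changes between -0.36 and 0.03.

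The WT lines differed widely in these genes. AMO1 WT against L363 WT had 4 of 8 genes higher and none lower with ANXA1 set apart, where 9.06% of genes were called higher and 7.55% lower. The log2-fold changes were 6.75 for S100A6, 2.57 for LGALS3, 2.50 for ANXA2 and 1.50 for ANXA5, with adjusted p values of at most 2.1e-07. Against RPMI-8226 WT, AMO1 WT had 5 of these 8 genes higher and S100A11 lower, where 10.9% were called higher and 11% lower. LGALS3 was 5.68 and VIM 4.53 higher on the log2 scale, and their AMO1 WT means were 77.1 and 24.2 times the RPMI-8226 WT means, while S100A11 fell by 1.21 (adjusted p = 3.1e-06). S100A6 was not called between these 2 lines (0.50, adjusted p = 0.054), and their libraries overlapped. Against ARH-77 WT, AMO1 WT had 6 of the 8 genes higher and none lower, where 11.6% were called higher and 12.7% lower.

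L363 WT against RPMI-8226 WT had VIM (5.48), LGALS3 (3.11), LGALS1 (2.04) and S100A10 (1.80) higher, and S100A6 (-6.26) and ANXA2 (-2.03) lower on the log2 scale, where 10.6% of genes were called higher and 11.4% lower. VIM was thus 46.9 times as high in L363 WT as in RPMI-8226 WT, in the direction opposite to S100A6. L363 WT against ARH-77 WT had VIM (4.11), S100A11 (2.62), S100A10 (1.57) and LGALS1 (1.38) higher and S100A6 (-3.39) and ANXA2 (-1.30) lower, where 11.4% were called higher and 13.8% lower. RPMI-8226 WT against ARH-77 WT had S100A11 (3.20) and S100A6 (2.87) higher and LGALS3 (-2.79) and VIM (-1.36) lower, where 13.3% were called higher and 15.1% lower.

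Across the 10 group means of log2(FPKM + 1), S100A6 was the gene most like S100A4 of all 13088 other tested genes, with a Pearson r of 0.988. Of the other members ANXA2 had an r of 0.82, ANXA5 of 0.72 and ANXA1 of 0.64, while VIM was at -0.47 and S100A11 at -0.41. These values describe 10 groups that share lines and, as S100A4 was near 0 in 5 of them, they rest largely on presence against near absence. After the members, the genes most like S100A4 were SH2D2A, an adaptor of T cell signaling (0.98), SERPINE2, a secreted protease inhibitor (0.98), IFNLR1, a subunit of the interferon lambda receptor (0.97), ACSS1, a mitochondrial acetyl-CoA synthetase (0.97), and GCNT1, an enzyme that branches O-glycans (0.97). SERPINE2, for example, was at 32.9 and 29.3 FPKM in RPMI-8226 WT and 0 and 0.02 in RPMI-8226 BtzR. None of these 5 genes was among the first 5 with Spearman's rho, by which S100A6 ranked 153 with a rho of 0.84.

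The other pairs among the 10 genes with an r above 0.8 were LGALS1 with VIM (0.86) and ANXA2 with S100A4 and with S100A6 (0.82 and 0.81). S100A10 and ANXA2, whose proteins form one complex, had an r of -0.41 over the 10 groups. S100A4 and S100A10 were at -0.03.

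In RefSeq order, 63 protein-coding genes lie from S100A10 to S100A1, and 34 of them were in the table. Beside S100A4, 8 of them were tested: S100A10, S100A11, IVL, SPRR1A, SPRR2A, S100A6, S100A13 and S100A1. Of these 8, S100A10 and S100A6 were called lower in RPMI-8226 BtzR, where 7.92% of all genes were. IVL, SPRR1A and SPRR2A each passed the filter on low values through a single group, ARH-77 BtzR, AMO1 BtzR and AMO1 WT, and are set apart in comparisons with that group. In comparisons without it their means were under 1 FPKM in both groups, so they could not be called but stay in the counts. Nor could S100A6 be called among the L363 groups and the libraries labelled AMO1 CfzR. Of the 6 genes left in AMO1 BtzR, S100A10 and S100A11 were called lower, where 4.57% of all genes were, and of the 7 left in the libraries labelled AMO1 CfzR against AMO1 WT S100A6 was, where 9.21% were. Of those set apart, SPRR2A was lower in AMO1 BtzR and in the libraries labelled AMO1 CfzR than in AMO1 WT, and IVL was higher in ARH-77 BtzR than in WT. Limma called none of the 7 left in ARH-77 BtzR, with 3 at an unadjusted p under 0.05, as had 26.7% of all genes. None of the 8 was called in L363 BtzR or L363 CfzR against L363 WT, with 1 at an unadjusted p under 0.05 in each (23.5% and 18.8% of all genes). The same held in L363 CfzR against L363 BtzR (1 of 8, against 14.8%) and in the libraries labelled AMO1 CfzR against L363 WT (0 of 8, against 16.5%). In these comparisons 0.535% to 1.11% of all genes were called in each direction. This stretch was chosen after values of its genes had been seen.

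Other members of the 3 families were mostly low or not called. The table held 12 other S100 genes, of which S100A1, S100A13 and S100Z passed the filter on low values, and limma called none in any comparison of a resistant group, with 0 to 2 of the 3 at an unadjusted p under 0.05, as had 14.8% to 61.8% of all genes. Of 10 other annexins 6 were tested, and among comparisons of resistant groups RPMI-8226 BtzR alone had calls. In the others 0 to 5 of the 6 had an unadjusted p under 0.05, as had 14.8% to 61.8% of all genes. ANXA6, an annexin with a doubled core, fell by 2.59 (adjusted p = 8.5e-09), from 37.0 and 32.1 to 3.56 and 6.64 FPKM, 1 of 5 tested annexins lower where 7.92% of genes were. ANXA13 passed the filter on low values through RPMI-8226 WT alone and so had to differ: it went from 10.0 and 8.68 FPKM to a value listed at 0 in both BtzR libraries. Of 12 other galectins 4 were tested. LGALS2 fell by 1.31 on the log2 scale in RPMI-8226 BtzR, 1 of 3 tested galectins lower where 7.92% of genes were. LGALS9, which also passed through RPMI-8226 WT alone, went from 2.39 and 2.90 to 0.04 and 0.15 FPKM there. LGALS8 fell by 1.23 in AMO1 BtzR, 1 of 4 lower where 4.57% of genes were. LGALSL was lower in the libraries labelled AMO1 CfzR than in AMO1 WT (-1.57), also 1 of 4, where 9.21% of genes were. In the other comparisons of resistant groups limma called no other galectin, with 0 to 2 of the 4 at an unadjusted p under 0.05, as had 14.8% to 26.7% of all genes.

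Among 13 tested partners of S100 and annexin proteins, AHNAK, a giant scaffold protein that binds the ANXA2 and S100A10 tetramer, was called in several comparisons but in both directions. It fell by 2.45 in RPMI-8226 BtzR (74.1 and 95.4 to 12.4 and 17.0 FPKM, adjusted p = 8.3e-08), the only partner of the 13 called there, where 7.92% of genes were lower. It fell by 1.50 in L363 BtzR (9.03 and 10.8 to 2.58 and 3.15 FPKM, adjusted p = 0.00012) and rose by 1.02 in L363 CfzR (to 16.5 and 27.0 FPKM, adjusted p = 0.0036). MYH10, a non-muscle myosin heavy chain, rose by 1.64 in L363 BtzR. Of the 13 partners 1 was lower and 1 higher in L363 BtzR, where 1.05% and 1.02% of all genes were. In L363 CfzR 1 was higher and none lower, where 1.11% and 0.825% of all genes were. In AMO1 BtzR and ARH-77 BtzR no partner was called by limma, with 8 and 3 of the 13 at an unadjusted p under 0.05, as had 56.0% and 26.7% of all genes. The libraries labelled AMO1 CfzR had 3 partners higher and 3 lower than AMO1 WT, where 7.88% and 9.21% of genes were, led by PLA2G4A, which was listed at 0 in AMO1 WT, and PLGRKT (1.29) on the higher side and by MYH10 (-2.96) and AHNAK (-2.70) on the lower, and limma called none against L363 WT, with 4 at an unadjusted p under 0.05 (16.5% of all genes). Between L363 CfzR and L363 BtzR, AHNAK was 2.52 higher and MYH10 fell by 1.76. They were the only partners called there, where 0.940% of all genes were higher and 0.535% lower.

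Of 10 genes for galectin ligands, LGALS3BP and CD7 passed the filter on low values through RPMI-8226 BtzR and RPMI-8226 WT alone and so had to differ between them. LGALS3BP, a secreted glycoprotein that binds galectin-3, went from 0.39 and 0.31 FPKM in WT to 21.4 and 16.01 in BtzR cells, and CD7 from 1.99 and 2.28 to 0.09 and 0.17. Of the other 8, 1 was higher and 2 were lower in RPMI-8226 BtzR, where 5.91% of all genes were called higher and 7.92% lower. The integrin ITGB1 rose by 1.74. MUC1, a mucin, fell from 56.7 and 42.3 to 1.17 and 2.15 FPKM (-4.26, adjusted p = 2.4e-09). In AMO1 BtzR only CD44 of the 10, the hyaluronan receptor, was called, where 4.57% of genes were lower, from 20.2 and 21.8 to 3.69 and 4.81 FPKM (-2.08, adjusted p = 5.0e-09). SPN, the sialomucin CD43, fell by 2.28 in L363 BtzR, by 2.62 in the libraries labelled AMO1 CfzR against L363 WT and by 3.99 in them against AMO1 WT, where CD44 fell by 4.45. It was 1.83 higher in L363 CfzR than in L363 BtzR. SPN was the only gene of the 10 called in these comparisons, except against AMO1 WT, where 3 were lower. The shares of all genes called lower were 1.05% in L363 BtzR, 0.802% against L363 WT and 9.21% against AMO1 WT. Between L363 CfzR and L363 BtzR 0.940% were higher. Limma called no ligand gene in L363 CfzR or ARH-77 BtzR against WT, with 4 and 5 of the 10 at an unadjusted p under 0.05, as had 18.8% and 26.7% of all genes.

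Of 28 tested genes for other intermediate filaments and the membrane skeleton, 4 were higher and 1 lower in RPMI-8226 BtzR, against 5.91% and 7.92% of all genes. SYNM, which forms filaments together with vimentin, rose by 2.59 (9.72 and 9.77 to 79.2 and 51.3 FPKM, adjusted p = 8.6e-10), and TPM1, a tropomyosin, rose by 2.06, while LMNA, a nuclear lamin, fell by 1.17. In AMO1 BtzR 3 were higher and 2 lower, against 4.61% and 4.57%. NES, another filament partner of vimentin, rose by 3.10 (0.38 and 0.54 to 11.2 and 11.7 FPKM, adjusted p = 1.3e-11) and ACTN1 by 1.56, while KRT8 fell by 2.03 and ACTA2 by 1.03. NES also rose by 1.27 in L363 BtzR and was 6.08 higher in the libraries labelled AMO1 CfzR than in AMO1 WT, where 3 genes of this list were higher and 9 lower, against 7.88% and 9.21% of all genes, with ZYX (-3.02) and KRT8 (-2.38) lowest. MYL9, a myosin light chain, rose in ARH-77 BtzR from 6.03 and 4.35 to 27.9 and 26.4 FPKM (adjusted p = 1.0e-08). NES in L363 BtzR and MYL9 in ARH-77 BtzR were the only genes of the 28 called there, where 1.02% and 0.955% of all genes were higher.

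Of 7 tested regulators and products of mesenchymal cells, 1 was called in RPMI-8226 BtzR, where 7.92% of all genes were called lower and 5.91% higher. It was FN1, fibronectin, which fell from 3005 and 3821 to 36.7 and 96.4 FPKM (-5.81, adjusted p = 3.1e-09) while VIM rose. In AMO1 BtzR CDH1, E-cadherin, rose by 1.38 and ZEB2 by 1.21, and TGFB1 fell by 1.10, 2 of the 7 higher and 1 lower where 4.61% and 4.57% of all genes were. CDH1 fell by 1.56 in L363 BtzR and by 1.34 in L363 CfzR, and by 1.57 in the libraries labelled AMO1 CfzR against L363 WT. It was the only gene of the 7 called in each, where 1.05%, 0.825% and 0.802% of all genes were called lower. Against AMO1 WT the libraries labelled AMO1 CfzR had SPARC (7.98) and ZEB2 (1.23) higher, 2 of the 7, and none lower, where 7.88% and 9.21% of all genes were. Over these lists the median log2-fold changes in RPMI-8226 BtzR were -0.53 for the other S100 genes, -0.35 for the annexins without ANXA13, -0.28 for the galectins without LGALS9, -0.19 for the partners, 0.18 for the galectin ligands without LGALS3BP and CD7 and 0.01 for both the filament and the mesenchymal genes, against 0.05 over all genes. In AMO1 BtzR they ran from -0.36 for the galectins to 0.28 for the annexins, against -0.0017 over all genes.

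**Figure D4:**
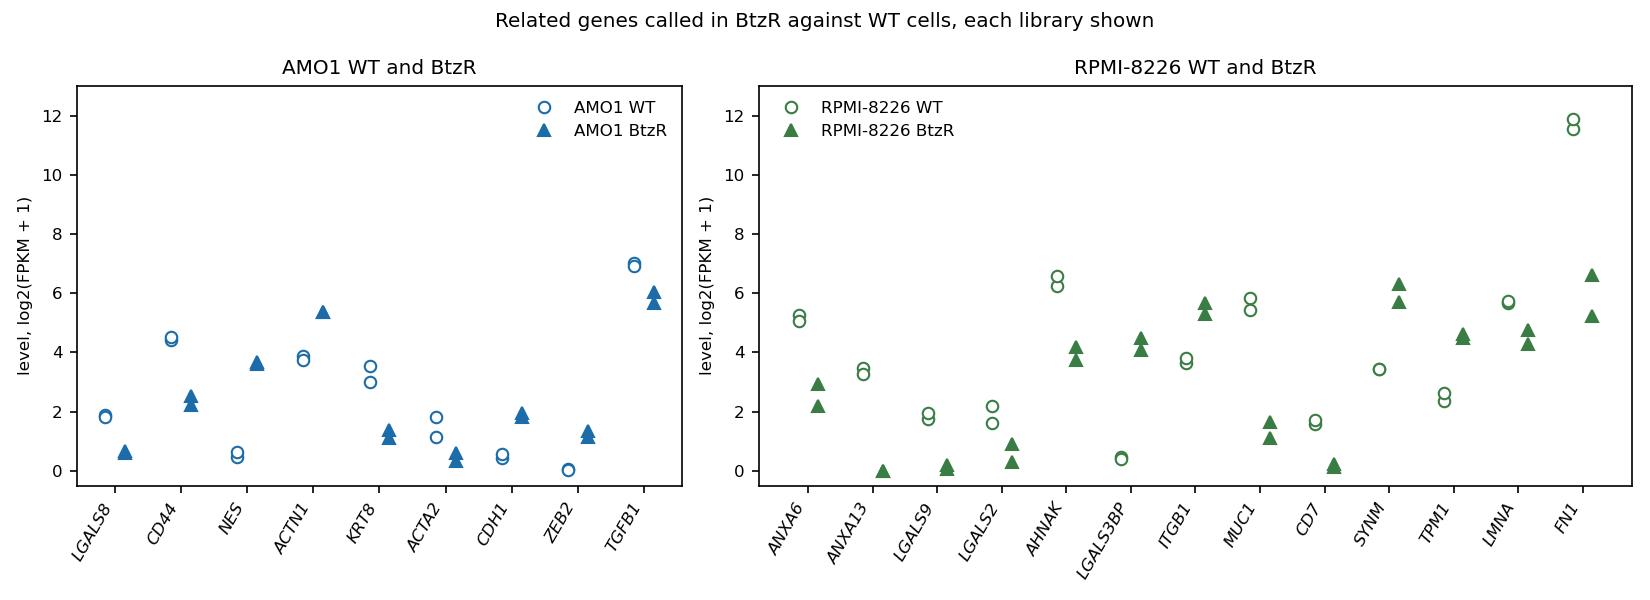
Levels, as log2(FPKM + 1), of related genes called in BtzR against WT cells of AMO1 (left) and RPMI-8226 (right), with 1 symbol per library, open circles for WT and filled triangles for BtzR cells. In RPMI-8226 ANXA6, ANXA13, AHNAK, MUC1 and FN1 were lower and LGALS3BP, ITGB1, SYNM and TPM1 higher in both BtzR libraries, and in AMO1 CD44 was lower and NES higher in both. ANXA13, LGALS9, CD7 and LGALS3BP passed the filter on low values through 1 of the groups shown alone, which fixed their difference.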

How the data were processed

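RNA of 20 libraries, in 10 groups of 2 biological replicates, was sequenced on the BGISEQ-500 platform by BGI. The authors deposited FPKM values per gene, to 2 decimals, for each replicate. The submitters' processing notes name HISAT2 2.0.4, Bowtie2 2.2.5 and RSEM 1.2.12; the genome build is not given in the sources used here, and no scaling between libraries is stated. Without read counts the depth is unknown and no counting interval can be given, so the precision rests on 2 replicates. The line and drug in its label put each library in a group.

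For the comparisons, limma 3.58.1 (R 4.3.3) fitted a single model of log2(FPKM + 1) with 10 group means, 10 residual degrees of freedom and a mean-variance trend. The p-values were adjusted over the 13089 genes whose mean reached 1 FPKM in any group, and 14 comparisons and 1 interaction were tested. With 2 libraries against 2, the smallest p of an exact two-sided permutation test is 0.33, so none was made. Genes that passed the filter through a single group are given as values in comparisons with that group, and the counts in the results leave them out there. The script was tested on simulated data. The 10 genes, the lists of related and marker genes and the tests were chosen with earlier results of these data known. Beside the 10 genes, the text names the 5 genes most like S100A4, up to 2 called genes per direction, list and comparison of a resistant group, and markers. The alternatives were a pseudocount of 0.1, no filter or one of 5 FPKM, TPM scaling, quantile normalization, no trend, a replicate block, the compared libraries alone, and leaving out each library. Gene order and promoters came from RefSeq. Descriptions and plots were made in Python 3.11.15 (pandas 2.3.3, numpy 2.4.6, matplotlib 3.10.9).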

Additional observations from a re-analysis of the deposited data

Results flagged for a closer look

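The difference between BtzR and WT cells varied with the line in 7 genes, or in 6 of 8 with ANXA1 set apart, by the interaction F test in limma across the 4 lines, as it did in 71.1% of all tested genes. For S100A6 (adjusted p = 1.62e-10) the log2-fold changes were -6.38 in RPMI-8226 and 0.62 in AMO1, with L363 under 1 FPKM throughout. For S100A10 (adjusted p = 1.37e-08) they were -2.22 in AMO1, -0.58 in ARH-77 and 0.75 in L363, and the gene was listed at 0 in RPMI-8226 BtzR. For S100A11 (adjusted p = 4.02e-07) they were -1.73 in AMO1, 0.56 in RPMI-8226, 0.59 in ARH-77 and 0.09 in L363. ANXA1 also passed (adjusted p = 5.9e-06), but it entered the test through AMO1 WT alone, which fixed that difference, so it is not counted as support. For VIM (adjusted p = 1.89e-07) they were 3.13 in RPMI-8226, 0.93 in AMO1, 0.64 in ARH-77 and -0.01 in L363. LGALS1 (adjusted p = 0.0235) had changes of 1.05 in AMO1 and -0.28 in L363, and LGALS3 (adjusted p = 0.036) of 0.84 in ARH-77, 0.81 in RPMI-8226, 0.10 in AMO1 and -0.08 in L363.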

How the results depend on the processing

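Of 192 alternative values of the number of genes called, 190 stayed within 1.5 times the main value of the same count. Unlike the counts in the results, these include ANXA1 in comparisons with AMO1 WT and in the interaction, where its difference was fixed. In RPMI-8226 BtzR the number was 5 with a pseudocount of 0.1, in place of 3. For L363 CfzR against L363 BtzR it ranged from 0 to 1 when each library was left out. Of 1344 alternative values of single log2-fold changes, 1318 kept their direction and their side of the thresholds, 6 passed them only in the alternative, 2 only as reported (LGALS1 in AMO1 BtzR) and 18 changed sign; none of those 18 was called. VIM in L363 BtzR was 0.050 with TPM scaling and 0.13 with quantile normalization. With each library left out, LGALS3 ranged from -0.32 to 0.52 in AMO1 BtzR, and in L363 BtzR S100A11 from -0.018 to 0.20, LGALS3 from -0.16 to 0.0036 and VIM from -0.059 to 0.041. In L363 CfzR S100A11 ranged from -0.18 to 0.12 and LGALS1 from -0.23 to 0.14, and in RPMI-8226 BtzR LGALS1 from -0.56 to 0.43. In ARH-77 BtzR S100A6 ranged from -0.00784 to 0.48, in the libraries labelled AMO1 CfzR against L363 WT LGALS1 from -0.37 to 0.033 and LGALS3 from -0.061 to 0.088, and between L363 CfzR and L363 BtzR S100A11 from -0.27 to 0.025. The cause of these changes was not tested beyond the libraries removed.

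The labels tie same-numbered replicates to no shared batch or day, and 2 replicates give 1 correlation per comparison, so the numbers were not taken to pair the libraries. Their deviations from the group means correlated at -0.0055 in AMO1 BtzR with WT and between 0.12 and 0.24 in the other comparisons of resistant groups. With the replicate number as a block, 4 of the 9 genes, ANXA1 included, were called in AMO1 BtzR, 3 in RPMI-8226 BtzR and 5 in the libraries labelled AMO1 CfzR against AMO1 WT, again with ANXA1, as without it. The unknown depth limits what a value listed at 0 can show.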
